A study of Mus musculus with 2 samples.

Results

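The genes Gria1, Gria2, Gria3 and Gria4 encode the pore-forming subunits GluA1 to GluA4 of the AMPA-type glutamate receptor. They were taken by symbol, and they make up 4 of 55536 gene rows and 26 of 141862 transcript rows. The tissue was left cerebral cortex, taken at 2 months of age from 2 males of B6CASTF1/J, a hybrid of C57BL/6J and CAST/EiJ, and its total RNA was sequenced. Each animal gave 1 library, made from 300 ng of RNA with added spike-in RNAs, and per the labels the library type was stranded with ribosomal RNA reduced. Both libraries form 1 group, with no treatment, no mutant and no control, so the values are levels, shares and their spread between the animals. The labels number the tissue samples as separate males but give both the same donor record, so the spread is that between these 2 samples.

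AMPA receptors are tetramers that open when glutamate binds and carry most of the fast excitatory current in the cortex. A receptor that holds edited GluA2 lets little calcium through, and a receptor without it lets calcium pass. Each of the 4 genes also has a pair of alternative exons, called flip and flop, that code the stretch before the last membrane-spanning segment. Receptors built from flop subunits are in general known to desensitise faster than those built from flip subunits.

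The flip and flop exons are shown because the results on transcript forms turn on which of them a form holds. Each was read from the GENCODE M21 transcripts on build mm10, 5′ to 3′, and the capitals mark the codon for serine in flip or asparagine in flop. That residue is known to set the sensitivity of the receptor to the drug cyclothiazide.
Gria1 flip exon, chr11:57310608-57310722, plus strand: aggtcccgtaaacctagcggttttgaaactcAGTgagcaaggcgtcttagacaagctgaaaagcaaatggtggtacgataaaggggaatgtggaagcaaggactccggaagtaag
Gria1 flop exon, chr11:57309769-57309883, plus strand: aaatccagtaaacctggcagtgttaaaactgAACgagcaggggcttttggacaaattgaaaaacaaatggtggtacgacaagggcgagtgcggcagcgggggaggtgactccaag
Gria2 flip exon, chr3:80690404-80690518, minus strand: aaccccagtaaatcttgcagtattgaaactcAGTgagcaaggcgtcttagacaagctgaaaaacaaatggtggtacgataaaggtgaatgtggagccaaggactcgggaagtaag
Gria2 flop exon, chr3:80691320-80691434, minus strand: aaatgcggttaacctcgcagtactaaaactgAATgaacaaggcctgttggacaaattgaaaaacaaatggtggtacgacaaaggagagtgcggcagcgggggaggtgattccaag
Gria3 flip exon, chrX:41669501-41669615, plus strand: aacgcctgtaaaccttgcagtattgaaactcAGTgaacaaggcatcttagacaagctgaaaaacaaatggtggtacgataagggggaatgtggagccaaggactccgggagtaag
Gria3 flop exon, chrX:41654810-41654924, plus strand: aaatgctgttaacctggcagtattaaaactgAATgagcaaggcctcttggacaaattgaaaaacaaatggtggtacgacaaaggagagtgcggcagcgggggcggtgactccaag
Gria4 flip exon, chr9:4427030-4427144, minus strand: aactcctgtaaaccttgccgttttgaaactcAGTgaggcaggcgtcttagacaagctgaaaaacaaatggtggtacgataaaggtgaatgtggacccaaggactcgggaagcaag
Gria4 flop exon, chr9:4432773-4432887, minus strand: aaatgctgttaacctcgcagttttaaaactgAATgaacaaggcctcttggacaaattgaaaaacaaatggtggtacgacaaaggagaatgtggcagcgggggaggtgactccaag

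All 8 exons had 115 bases, and the annotation placed flop upstream of flip in all 4 genes. The stretch between them was 724 bases long in Gria1, 801 in Gria2, 14576 in Gria3 and 5628 in Gria4. Within a gene, flip and flop differed at 36 bases in Gria1, 36 in Gria2, 32 in Gria3 and 31 in Gria4. Of the 38 whole codons in the reading frame, 8 to 10 coded a different residue in flip than in flop. Between genes the same exon was more alike. A flip exon differed from that of another member by 9 to 14 bases and 1 to 4 changed residues, and a flop exon by 6 to 14 bases and 0 or 1 changed residue. The flop exons of Gria2, Gria3 and Gria4 differed from each other at 6 or 7 bases and coded the same residues. Little longer sequence was shared with other genes, in the family or outside it. Between 0.282% of the 31-base words of Gria1 and 1.45% of those of Gria3 also occurred in another gene.

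Each library came with a pair of quantifications on build mm10. The gene-table quantification gives expected counts, which are estimated read numbers, and TPM (transcript abundance scaled for length and for the library total). The other quantification was made straight from the reads of 1 sequence file and also gives estimated counts and TPM. They read the same libraries and are not replicates of each other. The gene-table quantification summed to 33007629 expected counts (replicate 1) and 32142918 (replicate 2). The other summed to 33424292 and 33464140. The 4 genes took 47263 of these gene-table counts in replicate 1, and 48219 in replicate 2. Levels below are gene-table TPM unless the other quantification is named. The animals carry a CAST/EiJ copy of each autosome while the reads were assigned to a C57BL/6J reference, and how mismatches bear on that was not tested.

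Summed over all annotated forms, Gria2 was the highest of the 4 genes and Gria4 the lowest in both animals. Gria2 (ENSMUSG00000033981.14, chr3:80681450-80802835, minus strand), whose edited product keeps calcium out, was at 219 TPM in replicate 1 and 241 in replicate 2. Gria1 (ENSMUSG00000020524.16, chr11:57011387-57330244, plus strand), whose subunit is known for activity-dependent insertion at synapses, was at 107 and 99.25 TPM. Gria3 (ENSMUSG00000001986.16, chrX:41400854-41678601, plus strand), on the X chromosome and usually paired with GluA2, was at 89.8 and 98.7 TPM. Gria4 (ENSMUSG00000025892.16, chr9:4417896-4796234, minus strand), whose subunit is known for fast receptors in interneurons, was at 44.9 and 47.1 TPM. The ranges of the 4 genes did not overlap, but those of Gria1 and Gria3 came within 1 TPM of each other. Gria1 over Gria3 was 1.19 in replicate 1 and 1.01 in replicate 2, so Gria1 was the higher in both animals but nearly level in replicate 2. In bulk tissue, a level set by fewer cells of a type and one set by less RNA per cell cannot be told apart.

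Of the summed TPM of the 4 genes, 461 and 487 in replicates 1 and 2, Gria2 made 48.6 ± 1.46% (SD, n = 2). Gria1 made 21.8 ± 1.99%, Gria3 19.9 ± 0.570% and Gria4 9.71 ± 0.0333%. These shares of Gria4 varied least between the animals and those of Gria1 most. In the other quantification the levels were higher in all 4 genes, at 315 and 357 TPM for Gria2 and 64.6 and 69.5 TPM for Gria4. The rise was not confined to these genes. The mean sum of the NMDA receptor genes was 687 TPM there against 481, and that of the kainate receptor genes 241 against 158. The order of the AMPA receptor genes was Gria2, Gria1, Gria3 and Gria4 there too. Gria1 was at 145 and 151 TPM and Gria3 at 132 and 151 TPM, so the ranges of Gria1 and Gria3 overlapped there.

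Not every annotated form codes a whole subunit, and the order changed in spacing when only those that do were counted. Forms annotated as protein coding with at least 800 codons are called subunit-length here, and there were 3 for Gria1, 2 for Gria2, 3 for Gria3 and 3 for Gria4. They summed to 154 and 163 TPM for Gria2, 104 and 98.6 for Gria1, 57.6 and 59.9 for Gria3 and 21.1 and 21.4 for Gria4. The values of the 4 genes again did not overlap, and Gria1 stood further above Gria3.

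Gria1 over Gria3 became 1.81 in replicate 1 and 1.65 in replicate 2. Gria2 over Gria1 became 1.47 and 1.65, in place of 2.05 and 2.43 over every form. Gria2 over Gria4 became 7.29 and 7.61, in place of 4.89 and 5.12. So counting only whole subunits brought Gria1 closer to Gria2 and set Gria4 further below it. In the other quantification subunit-length forms gave the same order, with Gria1 over Gria3 at 1.37 and 1.14, Gria2 over Gria1 at 1.57 and 1.72 and Gria2 over Gria4 at 7.41 and 7.52.

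**Figure D1:**
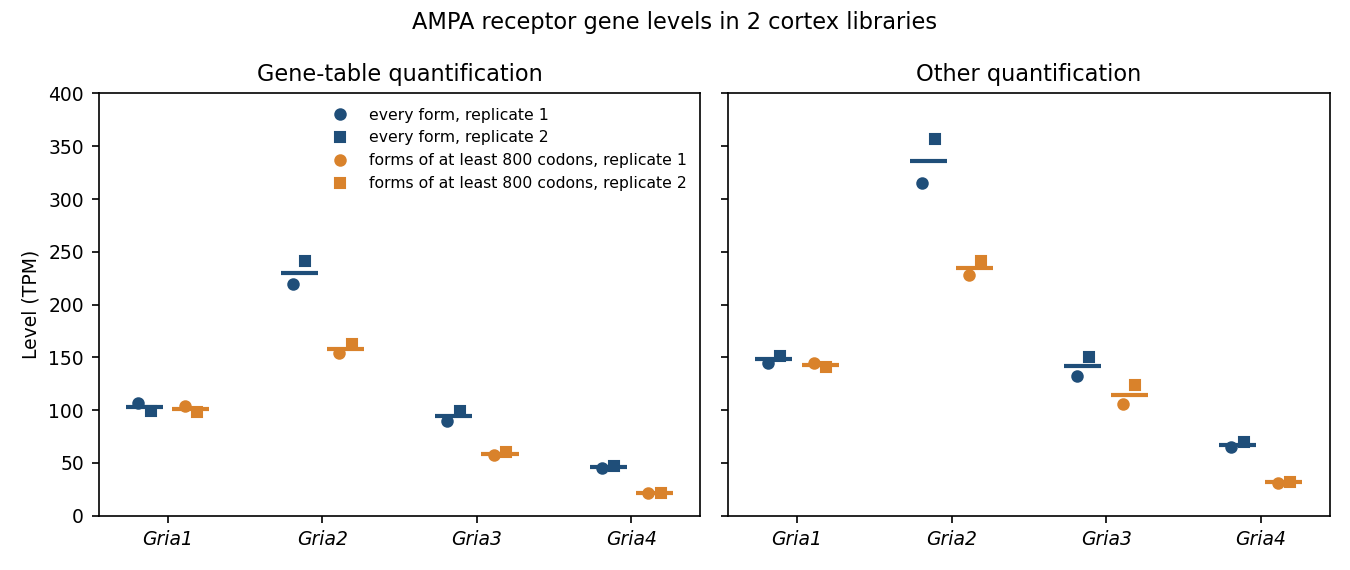
Levels of the 4 AMPA receptor genes (TPM, linear axis) in the gene-table quantification (left) and the other quantification (right), with circles for replicate 1, squares for replicate 2 and bars for the mean. Blue marks are sums over every form and orange marks sums over coding forms of at least 800 codons. Gria1 keeps nearly all of its level in the orange marks, while Gria4 has a mean of 21.2 TPM in orange against 46.0 TPM in blue in the gene-table quantification.

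The share of a gene's TPM in subunit-length forms was highest in Gria1 and lowest in Gria4. It was 97.5% and 99.4% in Gria1, 70.2% and 67.4% in Gria2, 64.1% and 60.6% in Gria3 and 47.0% and 45.4% in Gria4. What stood in place of whole subunits differed by gene. In Gria2 it was retained introns, in Gria3 retained introns and a form marked for nonsense-mediated decay, and in Gria4 a shortened form annotated as coding. These shares depend on which forms the annotation lists. For Gria1 it lists no retained-intron or nonsense-mediated decay form, and the forms below subunit length have 287 and 531 bases. How far that sets the order of the genes was not tested.

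Gria2 had 5 annotated retained-intron forms, which keep an intron and are not annotated as coding. Together they were at 63.0 and 74.8 TPM, or 28.7% and 30.98% of the gene. Gria2-206 was the highest of them at 29.8 and 35.0 TPM, above Gria2-204 at 14.7 and 17.1 and Gria2-208 at 13.6 and 15.9. Gria2-205 was at 4.85 and 6.79 TPM, and Gria2-207 was listed at 0 in both animals and both quantifications. The 4 forms with counts were each higher in replicate 2. Gria2-206, Gria2-204 and Gria2-205 hold 723, 2048 and 1609 bases found in no other Gria2 form, and Gria2-208 holds none. In the other quantification the retained-intron share of Gria2 was 25.2% and 28.3%.

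Gria3 had 4 retained-intron forms, at 13.6 and 18.3 TPM together, or 15.1% and 18.5% of the gene. Gria3-208, which keeps the intron before the flop exon, made most of it at 10.7 and 15.4 TPM. Gria3-205 was at 1.39 and 1.78 TPM, Gria3-204 at 1.01 and 0.59, and Gria3-207 at 0.51 and 0.49. The other quantification gave 17.1% and 18.1% for all 4. Gria1 and Gria4 have no retained-intron form in the annotation. For comparison, 5837 protein-coding genes had such a form, at least 2 forms and a mean of at least 10 TPM over both quantifications. Their median share was 10.5%. The mean share was 29.8% in Gria2, and 16.2% of those genes were at or above it. The mean share was 16.8% in Gria3, with 34.3% of the genes at or above it. The libraries are of total RNA, and how much of these reads came from RNA not yet spliced was not tested.

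In Gria4 the largest form was Gria4-203, at 23.8 and 25.7 TPM, or 53.8 ± 1.14% of the gene (SD, n = 2). Of its 11 exons 10 are those of the whole-subunit form Gria4-201. Its coding sequence of 433 codons has 423 in common with the 902 of Gria4-201. Its last exon has 590 bases that occur in no other Gria4 form, and it holds neither flip nor flop. Its count of 1158 and 1230 had a deposited posterior SD, the uncertainty of assigning reads to forms, of 30.3 and 30.9. The other quantification gave a like share of 52.4% and 53.8%. By expected counts, which are not scaled for length, the form held 32.2% and 33.7% of Gria4. How many of the reads on its last exon came from RNA not yet spliced was not tested.

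The nonsense-mediated decay forms hold flip and flop in a row. This puts the reading frame out of step, and such transcripts are known as targets for degradation. Gria2-203 was low, at 2.4 and 3.84 TPM, or 1.09% and 1.59% of Gria2. Gria3-206 was at 16.0 and 17.3 TPM, or 17.8% and 17.6% of Gria3. The quantifications did not give the same picture of Gria3-206, since the other placed it at 3.71 TPM in replicate 1 and 0.00661 TPM in replicate 2. Its expected counts of 1768 and 1881 had posterior SDs of 209 and 253, and it has no base of its own among Gria3 forms. For Gria2-203 the difference ran the other way, with 7.41 and 14.3 TPM in the other quantification.

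**Figure D2:**
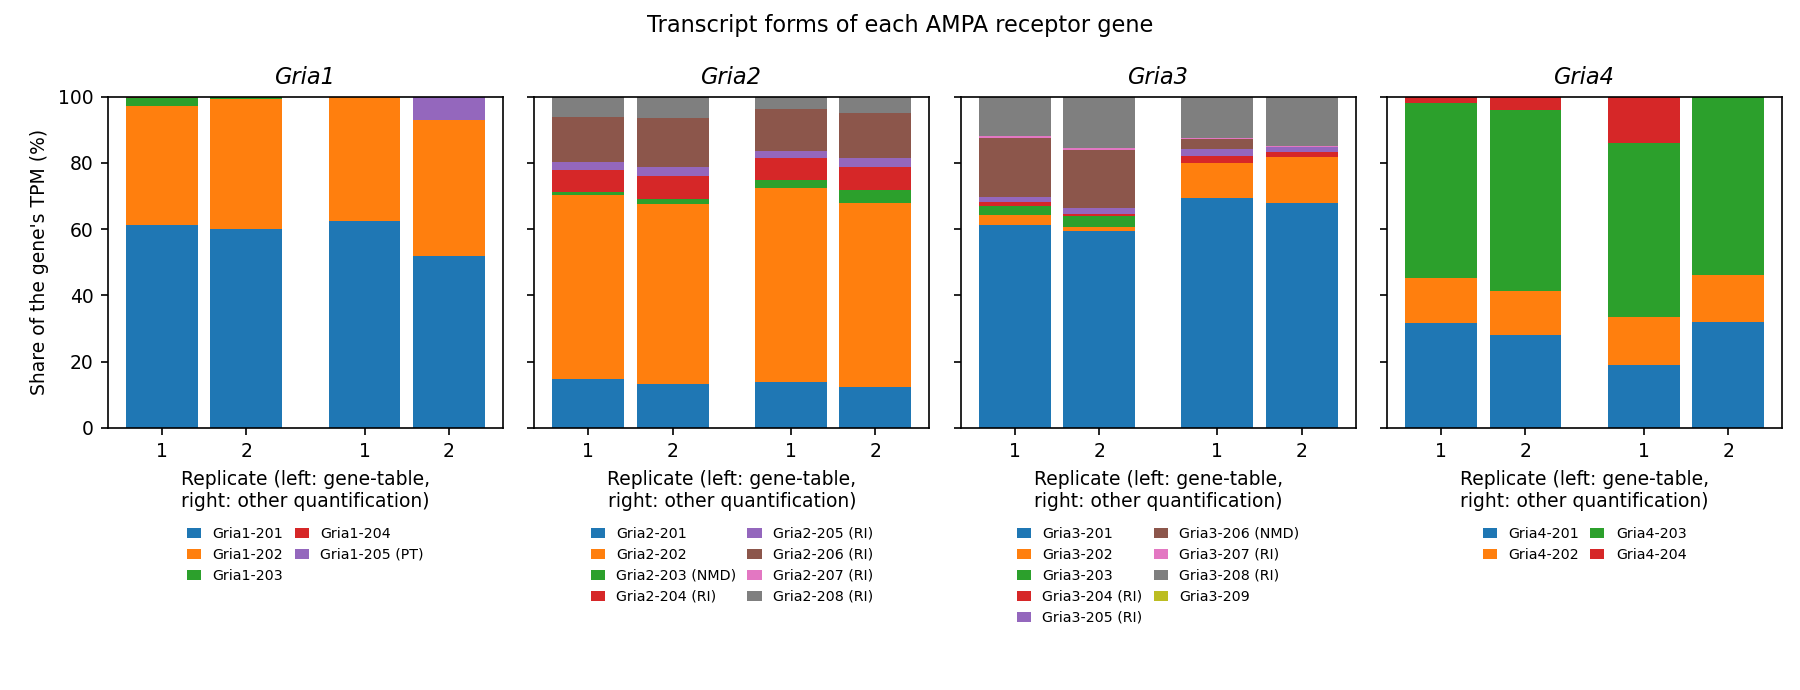
Share of each transcript form in its gene's TPM (%, stacked to 100), for replicates 1 and 2 in the gene-table quantification (left pair of bars) and the other quantification (right pair). RI marks retained introns, NMD nonsense-mediated decay and PT a processed transcript, and forms without a mark are annotated as coding. The brown Gria3-206 band takes 17.8% and 17.6% in the left pair and 2.81% and 0.00438% in the right, and the red Gria4-204 band is wide only in replicate 1 of the other quantification.

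Flip forms were more abundant than flop forms in Gria1, Gria2 and Gria3, and flop forms in Gria4, in both animals and in both quantifications. A form was assigned by the exon it holds, and those with both exons or neither were left out of the share. In Gria1, flip was at 66.0 and 59.9 TPM and flop at 38.4 and 38.7 TPM, a flip share of 63.2% and 60.7%. In Gria2, flip was at 121 and 131 TPM and flop at 32.6 and 31.8 TPM, a flip share of 78.8% and 80.5%. In Gria3, flip was at 55.1 and 58.6 TPM and flop at 13.2 and 16.7 TPM, a flip share of 80.7% and 77.8%.

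In Gria4, flip was at 6.06 and 6.31 TPM and flop at 15.0 and 15.1 TPM, a flip share of 28.7% and 29.5%. The flip shares of Gria2 and Gria3 overlapped, Gria1 lay below both, and Gria4 lay below Gria1. In the other quantification the shares were 62.4% and 55.8% in Gria1, 80.9% and 81.9% in Gria2, 74.8% and 70.3% in Gria3 and 30.3% and 30.6% in Gria4. There the values of the 4 genes did not overlap, and Gria2 was above Gria3. Only Gria1 and Gria4 gave shares by expected count within 3 percentage points of those by TPM in the gene-table quantification.

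**Figure D3:**
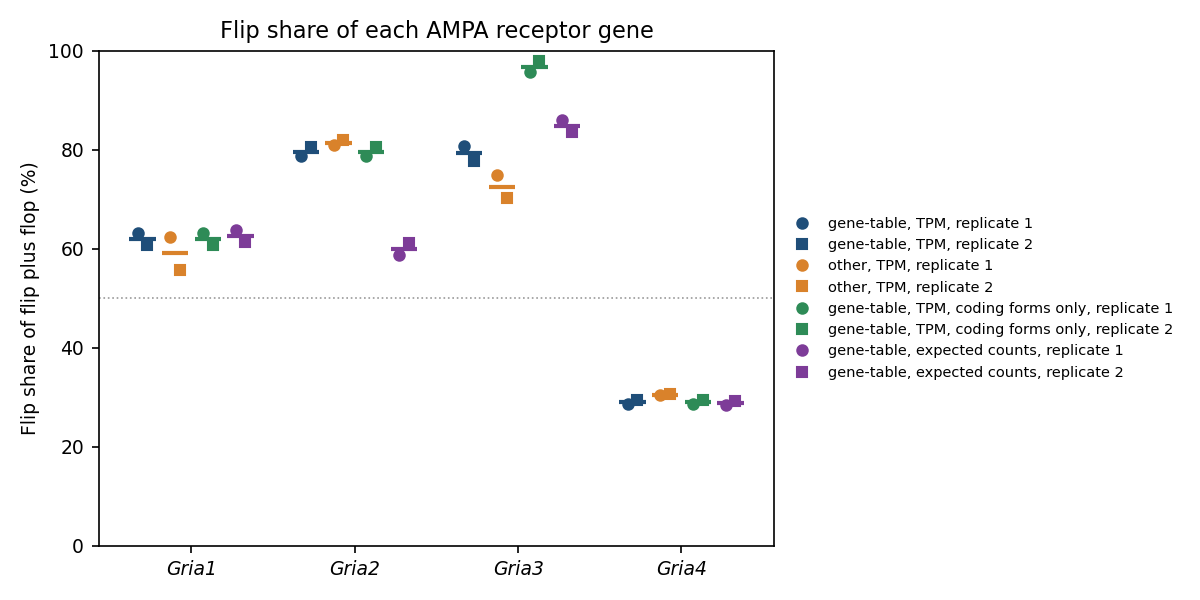
Flip share of flip plus flop (%) in each gene, with circles for replicate 1, squares for replicate 2, bars for the mean and a dotted line at 50%. Blue is the gene-table TPM, orange the TPM of the other quantification, green the gene-table TPM of coding forms only and purple the gene-table expected counts. Gria4 lies between 28.4% and 30.6% in every set, while Gria2 ranges from 58.7% to 81.9% and Gria3 from 70.3% to 97.9%.

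The annotated forms tie the alternative exon to other parts of the transcript, and by a different amount in each gene. In Gria1 the flip form Gria1-201 and the flop form Gria1-202 both have 907 codons, and their last exons are 2802 and 2801 bases long. Gria1-201 was at 65.6 and 59.7 TPM and Gria1-202 at 38.4 and 38.7 TPM. Gria1-202 has 115 bases of its own, the length of the flop exon, while Gria1-201 has 147, of which 146 lie in the first exon. The other subunit-length form, Gria1-204 with 838 codons and flip, was at 0.39 and 0.19 TPM.

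In Gria2 the exon comes with the 3′ end. The flop form Gria2-201 has a last exon of 7265 bases, of which 6345 occur in no other form, and the flip form Gria2-202 one of 920 bases. Both code 883 residues. By TPM the flip share was 78.8% and 80.5%, but by expected counts it was 58.7% and 61.2%, and TPM differs from the count by the scaling for the longer flop form. The counts of Gria2-201 were 7299 and 6978, with posterior SDs of 68.4 and 64.8. The counts of Gria2-202 were 10368 and 10996, with posterior SDs of 151 and 142, and it has no base of its own among Gria2 forms. How many of the reads on the long last exon belong to transcripts with flip was not tested, because no annotated form joins flip to it.

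In Gria3 the pairing was the reverse. The flip form Gria3-201 ends in an exon of 2262 bases, and the coding flop forms Gria3-202 and Gria3-209 each end in an exon of 246 bases, Gria3-209 directly after flop. The long end occurs with flop only in Gria3-206, which also holds flip. Gria3-202 was at 2.53 and 1.28 TPM in the gene-table quantification but at 14.2 and 20.96 TPM in the other. Its expected counts of 164 and 81.5 had posterior SDs of 70.5 and 70.5, and it has no base of its own. Gria3-209 was at 0 in the gene-table quantification and at or below 0.0517 TPM in the other.

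Most of the flop signal of Gria3 lay in the retained-intron form Gria3-208. With coding forms only, the flip share of Gria3 was 95.6% and 97.9%, and 86.6% and 83.0% in the other quantification. With Gria3-206 counted as flop it was 65.3% and 63.2%, and counted as flip it was 84.3% and 82.0%. Flip stayed above flop in each of these counts, all of which rest on the same annotated forms. How many reads on the long last exon belong to transcripts with flop alone was not tested, because no annotated form joins them.

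In Gria4 the 3′ ends do not separate the exons, with last exons of 2418 bases in the flop forms Gria4-201 and Gria4-204 and 2421 in the flip form Gria4-202. Gria4-201 was at 14.2 and 13.1 TPM, Gria4-202 at 6.06 and 6.31 and Gria4-204 at 0.86 and 1.95. The other quantification moved reads between the flop forms, with Gria4-201 at 12.3 and 22.2 TPM and Gria4-204 at 9.10 and 0.121. Their sum there, 21.4 and 22.3 TPM, differed by less between the animals than either form. Gria4-201 and Gria4-204 differ at their first exons, and Gria4-201 has no base that is in no other form.

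**Figure D4:**
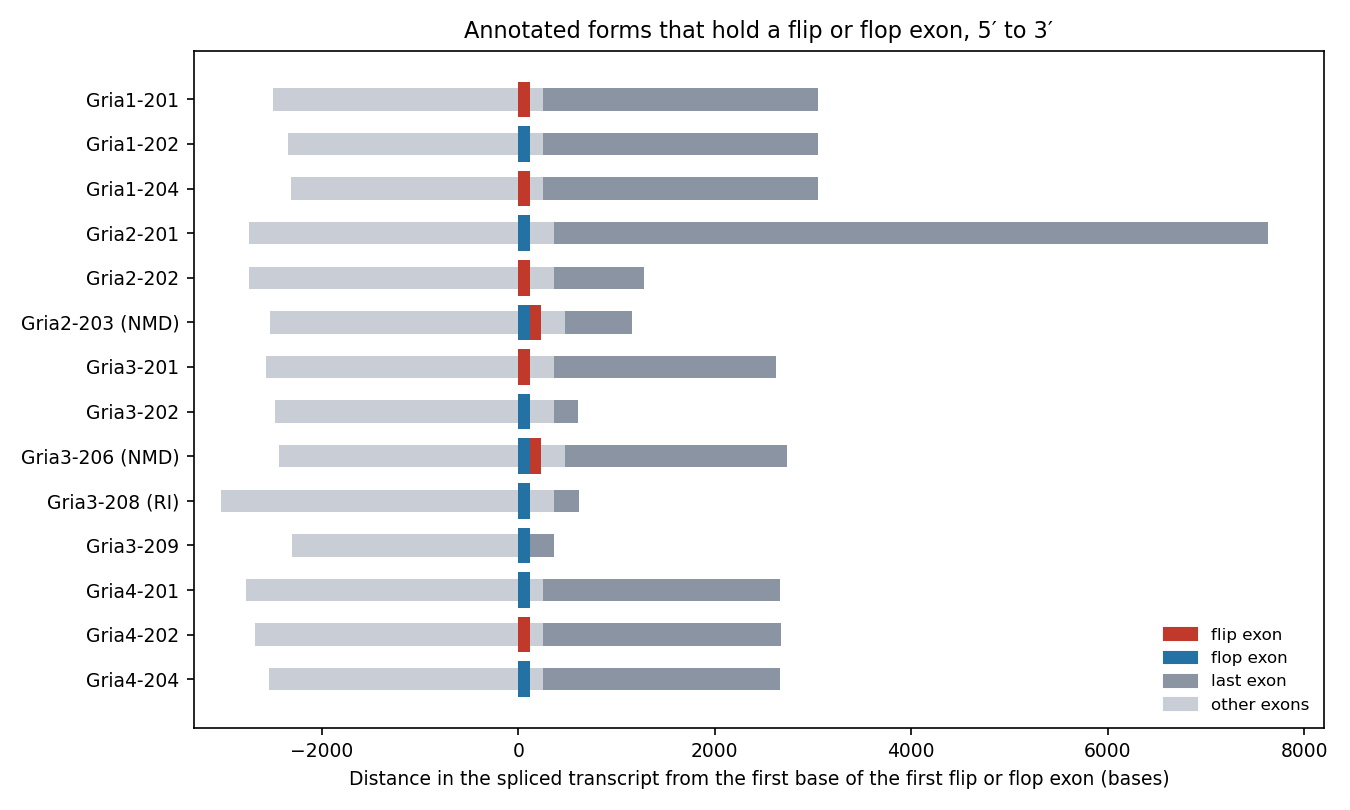
The 14 annotated forms that hold a flip exon (red) or a flop exon (blue), each drawn 5′ to 3′ as spliced, with distance in bases from the first base of the first such exon. Light grey is the rest of the transcript and dark grey the last exon, RI marks a retained intron and NMD nonsense-mediated decay. In Gria2 the 7265-base last exon belongs to the flop form, in Gria3 the 2262-base last exon belongs to the flip form, and the last exons of Gria1 and Gria4 are alike in flip and flop forms.

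Of the remaining forms, 3 reached 1% of their gene in at least 1 library. The partial coding form Gria1-203, which the annotation marks as incomplete, was at 2.67 and 0.61 TPM from 10.9 and 2.46 counts, and at 0 in the other quantification. The processed transcript Gria1-205 was at 0 in the gene-table quantification, and at 0 and 10.9 TPM in the other. The partial form Gria3-203 was at 2.66 and 3.24 TPM from 12.9 and 15.4 counts, and at 0 in the other. These short models have few reads, and their TPM is large for those reads because of their length.

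The mix of forms was compared between the quantifications as the share of a gene's TPM that would have to move from one form to another. It was 6.03% for Gria1, 4.06% for Gria2, 20.1% for Gria3 and 8.93% for Gria4, as means over the libraries. Over 8578 protein-coding genes with at least 2 forms and a mean of at least 10 TPM across both quantifications the median was 19.5%. Gria3 was thus near the median and the other members were below it. Between the animals the same measure was 3.17% for Gria1, 2.76% for Gria2, 4.33% for Gria3 and 3.83% for Gria4, against a median of 7.64%. In the other quantification it was 10.7% for Gria1 and 14.2% for Gria4, above a median of 9.07%, and 4.67% for Gria2 and 5.56% for Gria3.

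The levels of the animals were close. Expected counts were scaled between the libraries by TMM (edgeR), and the 18490 genes that averaged 10 or more counts were compared as the log2 ratio of replicate 2 over replicate 1. Each ratio has a 95% interval for counting error alone, which treats reads as independent molecules. With 1 animal against 1 there is no replicate check. None of the 4 genes differed by 2-fold or more, as 1.8% of all genes tested did. For 3 of 4 the interval excluded a ratio of 1, and over all genes tested 22.6% did so. The interval narrows as counts rise, and the members had 3596 to 23434 counts, against a minimum mean of 10 for the genes tested. The 22.6% is thus not matched for depth, here or beside the gene lists below. The same holds for the 1.8% and for the percentiles that follow. With a mean count of at least 100 required, 29 of 12817 genes differed by 2-fold. By size of the log2 ratio, Gria1, Gria2, Gria3 and Gria4 lay at percentiles 39.5, 48.2, 58.0 and 28.1 of all genes tested.

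Gria3 had 9772 counts in replicate 2 and 9092 in replicate 1, a log2 ratio of 0.13 (0.09 to 0.18). Gria2 had 23434 and 22313, a log2 ratio of 0.10 (0.08 to 0.13). Gria1 had 11361 in replicate 2 and 12262 in replicate 1, a log2 ratio of -0.08 (-0.12 to -0.04). Gria4 had 3652 and 3596, a log2 ratio of 0.05 (-0.01 to 0.12), so counting error alone covers that difference. Scaling by the spike-ins moved the median of all genes to 0.32. Gria1 was then at 0.24, so its sign turned, and Gria2 was at 0.42, Gria3 at 0.45 and Gria4 at 0.37. This scaling shifts the ratios of all genes by nearly the same amount, so it could not change their places relative to the median.

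Tissue markers gave the setting of these levels. Markers of excitatory neurons were the highest sum, at 2687 TPM in replicate 2 and 2599 in replicate 1, and those of inhibitory neurons were at 512 and 553, with all markers of both lists detected. The 7 striatum markers were lower in replicate 2 (144 against 264 TPM), with a median log2 ratio of -1.14. The 4 choroid plexus markers summed to 92.9 TPM in replicate 2 and 10.97 in replicate 1, of which Ttr made 89.2 and 8.58 TPM. Kl was at 2.18 and 1.8 TPM, Clic6 at 0.75 and 0.59 and Folr1 at 0.8 and 0. The 4 oligodendrocyte markers were at 579 TPM in replicate 2 and 715 in replicate 1. Astrocyte markers were at 1274 TPM in replicate 2 and 1269 in replicate 1, and oligodendrocyte precursor markers at 57.9 and 61.7. Those of microglia were at 77.0 and 84.7 TPM and those of red blood cells at 379 and 463. The part of these differences in the ratios of the Gria genes was not tested.

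AMPA receptor genes summed to 487 TPM in replicate 2 and 461 in replicate 1, beside 493 and 470 for the 7 NMDA receptor genes, which carry the slower calcium-permeable current. The 5 kainate receptor genes summed to 160 and 157 TPM and the 2 delta receptor genes to 29.8 and 31.6. The AMPA and NMDA sums thus differed by less than the spread between the animals, and the kainate and delta sums lay below both. NMDA was the higher in both animals, but in the other quantification AMPA was at 728 TPM and NMDA at 711 in replicate 2, against 657 and 663 in replicate 1. Those lists are sums of whole genes and say nothing of receptors at the membrane.

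Auxiliary subunits bind the receptor and set its gating and transport, and all 15 listed genes were measured, 14 of them at 1 TPM or more in both animals. They summed to 624 TPM in replicate 2 and 664 in replicate 1. Cnih2, a cornichon that slows desensitisation, was highest at 105 ± 14.3 TPM (SD, n = 2). The transmembrane regulators Cacng7 and Cacng8 followed at 83.1 ± 5.09 and 81.6 ± 5.49 TPM. The top rank turned in the other quantification, with Cacng7 at 166 and 157 TPM and Cnih2 at 158 and 137 TPM in replicates 1 and 2. Of the 15, 1 differed by 2-fold (1.8% over all genes tested), Shisa8 with 40 counts in replicate 2 and 89 in replicate 1, a log2 ratio of -1.09. The intervals of 7 excluded a ratio of 1, all 7 lower in replicate 2, where over all 18490 genes tested 22.6% did so, 2026 higher and 2146 lower. The median log2 ratio of the list was -0.09 against 0.00035 over all genes tested.

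Among 13 trafficking and anchoring genes, none differed by 2-fold, beside 1.8% of all genes tested. Nsf, the fusion ATPase that binds GluA2, was highest at 436 ± 5.29 TPM. The scaffold Dlg4, which codes PSD-95, was at 361 ± 0.481 TPM and the pentraxin receptor Nptxr at 345 ± 11.4 TPM. The other quantification put Dlg4, at 695 and 709 TPM, above Nsf, at 592 and 560 TPM. For 2 genes the interval excluded 1 with replicate 2 higher, and for 2 with replicate 2 lower, 4 of 13 beside 22.6% of all genes tested.

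GluA2 is made calcium-impermeable by an adenosine deaminase that edits its transcript, mainly the product of Adarb1. Adarb1 was at 61.8 ± 0.580 TPM and Adar at 61.6 ± 0.170 TPM, so they did not differ beyond the spread in the gene-table quantification. Adar was above Adarb1 in the other quantification, at 135 and 126 TPM against 88.8 and 92.3. Adarb2, whose product has no known editing activity, was at 9.86 ± 0.368 TPM. None of the 3 differed between the animals beyond counting error, beside 22.6% of all genes tested. Editing itself cannot be read from these tables.

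Of 7 genes known as regulators of exon choice in neurons, Rbfox3 was highest at 156 ± 0.283 TPM. Khdrbs3 was at 146 ± 5.26 TPM and Rbfox1 at 146 ± 0.127 TPM. Rbfox1, at 256 and 276 TPM, was above Rbfox3, at 221 and 253 TPM, in the other quantification. None of the 7 differed by 2-fold, beside 1.8% of all genes tested. In each direction 2 had an interval that excluded 1, 4 of 7 beside 22.6% of all genes tested. No link between these levels and the flip shares was tested, since there are only 2 animals.

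For each member the protein-coding genes nearest in level were found by the distance of log2(TPM + 1) over the 2 libraries, which describes likeness of level and nothing more. They were Capza2 and Cct7 for Gria1, Dgkz and Ank3 for Gria2, Trim28 and Tnik for Gria3, and Cinp and Ift172 for Gria4. The distances were 0.01 to 0.07. Annotated microRNA genes lie on the same strand within Gria2 (Gm25749), Gria3 (Gm22413) and Gria4 (Gm23811), and Gm25749 alone had counts, 8 in replicate 2 and 7.4 in replicate 1.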

How the data were processed

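Expected counts, the posterior SD of each count and TPM were made by the authors from the alignment to the transcriptome, and a further table of estimated counts and TPM from 1 sequence file of reads, on build mm10 with GENCODE M21, per the notes deposited beside the files. TPM as deposited is scaled to a fixed total over all rows, spike-ins included. No replicates were pooled. Which aligner and quantifiers were run is not given in the sources used.

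Forms were matched by transcript identifier to GENCODE M21, and flip and flop were assigned from its exons with the reading frame checked. The posterior SD was used as deposited. For the comparison of the animals, expected counts were rounded, spike-ins (97 rows) and rows without a gene (26248, with 1.78e-05% and 2.48e-05% of counts) were left out, and a mean count of at least 10 was required. Log2 ratios came from CPM after TMM scaling in edgeR 4.0.16 (R 4.3.3), with 2 as the prior count, and intervals are exact conditional binomial (Clopper-Pearson). The steps were tested on simulated data. DESeq2 1.42.0 gave the alternative size factors.

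Named were every form at 1% or more of its gene in either quantification, and, of the 4 lists of AMPA receptor partners and regulators, the 3 highest genes of each, all editing genes and any with a 2-fold difference. Other receptor families and tissue markers are given as sums. The choroid plexus markers Ttr, Kl, Clic6 and Folr1 were named after their values were seen. The members, lists and rules were chosen with earlier results of these data known. Forms with both exons as flip or flop, gene shares over subunit-length forms and the counting-interval call were added after the data were seen.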

Additional observations from a re-analysis of the deposited data

How the results depend on the processing

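Leaving out either animal changed no value by more than the spread between them, which holds by construction with 2 animals. In the other quantification the mean levels were 148, 336, 141 and 67.0 TPM for Gria1 to Gria4. As CPM they were 364, 705, 291 and 112, and as TPM scaled to nuclear coding genes 224, 501, 205 and 99.9. By expected counts Gria1 made 24.8% and Gria4 7.59% of the family, and over subunit-length forms the shares were 29.9, 46.6, 17.3 and 6.25%. Gria1-201 held 57.1% of Gria1 in the other quantification, 62.3% by counts and 61.9% without forms under 1 TPM. Gria2-202 held 57.01% and 46.7%, and Gria3-201 68.6% and 66.2%, in the other quantification and by counts. Gria4-203 held 32.9% by counts and 55.5% without forms under 1 TPM.

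The flip share in the other quantification was 59.1, 81.4, 72.6 and 30.5% for Gria1 to Gria4. By counts it was 59.9% for Gria2 and 84.8% for Gria3. For Gria3 it was 96.7% over coding forms only. With forms that hold both exons counted as flop it was 78.1% for Gria2 and 64.3% for Gria3, and counted as flip 83.2% for Gria3. Subunit-length forms held 96.4% of Gria1 and 81.0% of Gria3 in the other quantification, and 99.9, 77.9, 67.5 and 67.1% of Gria1 to Gria4 by counts.

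Genes that differed 2-fold between the animals numbered 333 of 18490 tested. Of the same genes, 633 did under spike-in scaling and 80 on log2(TPM + 1). With no count minimum it was 1958 of 28175, and at a mean count of at least 100 it was 29 of 12817. The counting-interval call gave 4172 of 18490. Under spike-in scaling the log2 ratio of Gria1 turned to 0.24, and Gria2, Gria3 and Gria4 were at 0.42, 0.45 and 0.37. Gria2 was at 0.14 on both log2(TPM + 1) and log2(TPM + 0.1). The cause of the differences between quantifications was not tested. No paired analysis was possible because both libraries belong to 1 group. With 2 animals the SD is itself poorly known, and shares of forms with few bases of their own rest on how reads were assigned.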
